A study of Mus with 10 samples.

Results

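The genes of the major histocompatibility complex (MHC) and of its peptide loading machinery were followed in liver type 1 innate lymphoid cells (ILC1s) with and without NKp46. The set was taken by name from the deposited gene table. It holds every gene whose symbol begins with H2-, together with *B2m*, *Tap1*, *Tap2*, *Tapbp*, *Tapbpl*, *Calr*, *Canx*, *Pdia3*, *Erap1*, *Nlrc5*, *Ciita*, *Cd74*, *Cd1d1* and *Mr1*. These were 58 of the 24564 genes in the table, with 45 assigned to class I, 12 to class II, and 1, *H2-Ke6*, that encodes a steroid-metabolizing enzyme and no antigen-presenting product. In all, 47 of the 58 genes lie on chromosome 17.

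MHC class I molecules pair a heavy chain with β2-microglobulin and carry peptides from the cytosol to the cell surface. The peptides pass through the TAP transporter and are loaded with the help of tapasin, calreticulin and ERp57, and NLRC5 drives transcription of the pathway. Class I is made by nearly all nucleated cells, shows peptides to CD8 T cells and engages inhibitory receptors on NK cells and ILC1s. Class II molecules are made mainly by dendritic cells, macrophages and B cells under the transactivator CIITA, and reach the endosome bound to the invariant chain, CD74.

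The data comprised 5 ILC1 libraries from livers of *Ncr1*+/+ C57BL/6 mice (labelled Ncr1-WT) and 5 from NKp46-deficient *Ncr1*gfp/gfp mice on the same background (labelled Ncr1-KO), in which *gfp* takes the place of *Ncr1*, the gene for NKp46. The mice were of either sex, 6 to 8 weeks old and untreated. Cells negative for lymphocyte lineage markers and for CD49b were sorted as NK1.1+ CD49a+, with NKp46 as a further gate for *Ncr1*+/+ and GFP for *Ncr1*gfp/gfp, so the last gate differed with genotype. Neither the lineage gate nor the others named a myeloid marker. Libraries were amplified from 2 ng of RNA, and the labels do not state that each came from a separate mouse, so the p-values measure the spread between libraries.

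The targeted gene separated the genotypes. Levels are given as CPM, a gene's count as a share of the TMM-scaled library total, and the 5 values of a genotype always stand in the order of its replicate numbers. *Ncr1* was at 2144, 2072, 2083, 1913 and 1936 CPM in *Ncr1*+/+ ILC1s. In *Ncr1*gfp/gfp ILC1s it was at 340.0, 356, 141, 172 and 285 CPM, a mean of 12.7% of that in *Ncr1*+/+. The summed level of 12 ILC1 and group 1 lymphocyte markers was 14488 to 14906 CPM in *Ncr1*+/+ and 13005 to 14824 CPM in *Ncr1*gfp/gfp libraries. *Ncr1* itself is among the 12, so its loss lowers the *Ncr1*gfp/gfp sum by construction. Of the 12, 7 were lower in *Ncr1*gfp/gfp, *Ncr1* included, and 5 were higher. Total counts ran from 15796253 to 22623133 per library, at which 3 counts correspond to 0.132 to 0.19 CPM. Between genotypes, 84 of the 11463 genes tested (0.733%) passed an adjusted p of 0.05 in edgeR's quasi-likelihood test together with a fold change above 1.5 or below 0.7, the call used throughout. At the adjusted p alone, 0.785% of tested genes were lower in *Ncr1*gfp/gfp and 0.567% higher.

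Of the 58 genes, 36 had enough counts to be tested. In edgeR 0 class I and 0 class II genes were called, and 0 reached an adjusted p under 0.05 (limma-voom called 0 as well, and DESeq2 called 1, *H2-Eb1*). At an unadjusted p under 0.05, 9 members were lower in *Ncr1*gfp/gfp, where the background was 5.91% of tested genes, and 0 were higher, where it was 5.46%. The 9 comprised 4 of 25 tested class I genes (16%) and 5 of 10 tested class II genes (50%). These counts moved with single libraries. Class I had 1 without *Ncr1*gfp/gfp replicate 5 or *Ncr1*+/+ replicate 4, and 5 without *Ncr1*+/+ replicate 2. Class II had 3 without *Ncr1*+/+ replicate 5 and 6 without *Ncr1*gfp/gfp replicate 5. No tested member had all 5 *Ncr1*gfp/gfp libraries below all 5 *Ncr1*+/+ libraries (1.82% of tested genes) or above them (1.28%). The median log2 fold change, *Ncr1*gfp/gfp over *Ncr1*+/+, was -0.05 over class I and -0.81 over class II, against 0.00 over all tested genes. Class I held 17 genes below 0 and 8 above (16 and 9 under RLE factors, where *Nlrc5* turned), while all 10 tested class II genes were below 0, beside 49.3% of all tested genes. Low genes can enter the test on the strength of the genotype in which they are higher, so this count is a description.

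**Figure D1:**
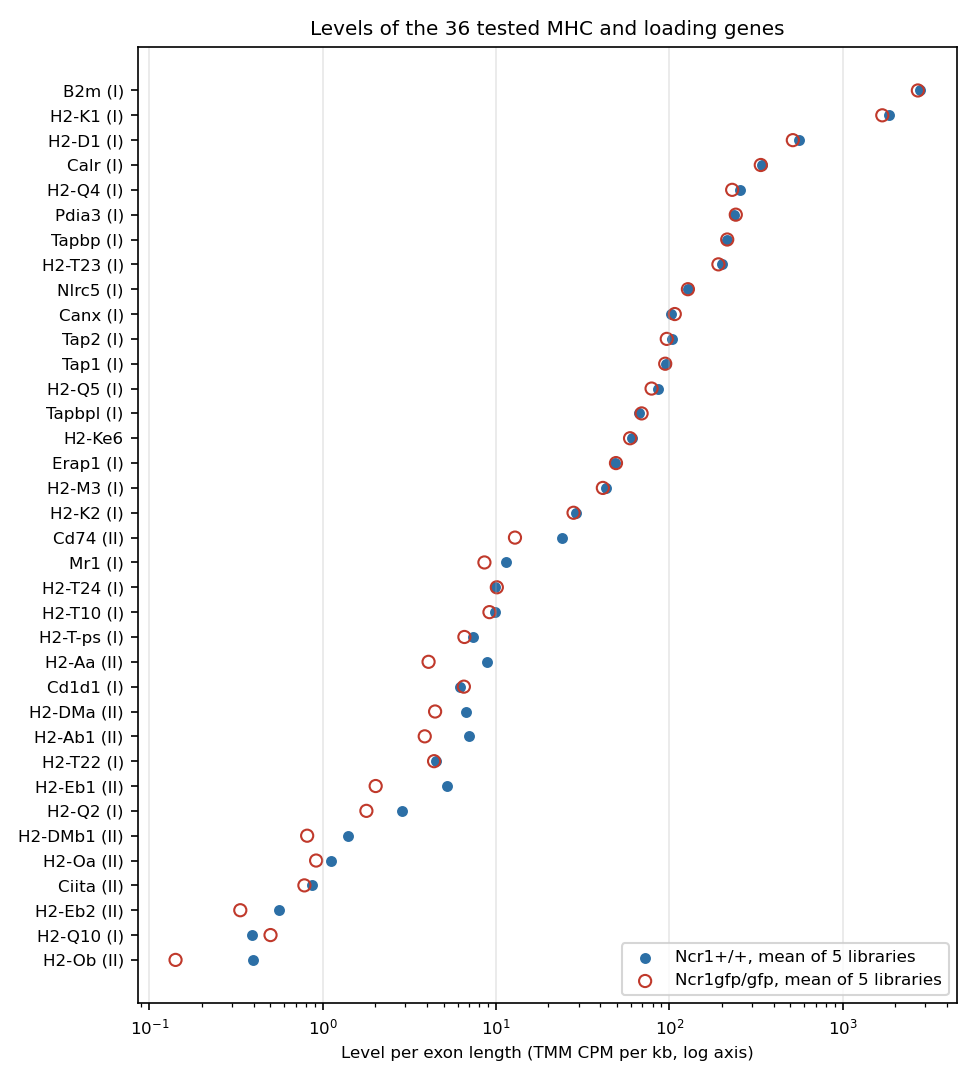
Mean level per exon length (TMM CPM per kb, log axis) of the 36 tested genes in *Ncr1*+/+ (filled) and *Ncr1*gfp/gfp (open) ILC1s, 5 libraries each, with the class in brackets. *B2m* and *H2-K1* lie at the right end and the class II genes fill most of the left end, with *Cd74* the highest of them.

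Class I transcripts were abundant in these cells when levels were compared per exon length. *B2m*, the light chain of every class I molecule, ranked 7th of all genes with a mean of 2751 CPM per kb over the 10 libraries. *H2-K1*, a classical heavy chain, followed at rank 8 with 1769 CPM per kb, and *H2-D1*, the other classical heavy chain of this strain, was at rank 37 with 536 CPM per kb, a lower limit because reads on exons it shares with *H2-L* are not counted. The non-classical heavy chains *H2-Q4* and *H2-T23* were at ranks 115 and 155. The loading genes and the transactivator were spread over ranks 70 to 464, with *Calr* at rank 70, *Pdia3* at 119, *Tapbp* at 140, *Nlrc5* at 301, *Canx* at 395, *Tap2* at 430 and *Tap1* at 464. The highest class II gene on this scale was *Cd74*, at rank 3955 with 18.5 CPM per kb, and *H2-Aa* was at 6.48 CPM per kb.

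The heavy chains that present peptide to CD8 T cells were slightly lower in *Ncr1*gfp/gfp ILC1s and did not pass the test. *H2-K1* was at 3033, 2796, 3235, 3261 and 2986 CPM in *Ncr1*+/+ and at 3021, 2869, 2906, 2827 and 2427 CPM in *Ncr1*gfp/gfp. The groups overlapped, with *Ncr1*gfp/gfp replicate 5 lowest and *Ncr1*+/+ replicate 4 highest. The log2 fold change was -0.12 ± 0.05 (SE, edgeR adjusted p = 0.343), from 3062 ± 192 to 2809.9 ± 226 CPM (SD, n = 5 each). *H2-D1* was at 919, 899.8, 1024, 1011 and 979 CPM in *Ncr1*+/+ and at 846, 905, 953, 909 and 864 CPM in *Ncr1*gfp/gfp. Only *Ncr1*+/+ replicates 1 and 2 lay within the range of the other genotype, and the log2 fold change was -0.11 ± 0.05 (SE, edgeR adjusted p = 0.37). *H2-L*, the further classical gene in the table, had no count, and the C57BL/6 haplotype is known to lack it.

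The light chain that pairs with all of them lay nearer to 0, a distance from the heavy chains that was not itself tested. *B2m* was at 2320.2, 2269, 2597, 2329 and 2435 CPM in *Ncr1*+/+ and at 2254, 2356, 2461, 2361 and 2218 CPM in *Ncr1*gfp/gfp. *Ncr1*gfp/gfp replicates 1 and 5 lay below the *Ncr1*+/+ range and the other 3 inside it, and the log2 fold change was -0.04 with a 95% interval from -0.13 to 0.05 (edgeR adjusted p = 0.832).

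**Figure D2:**
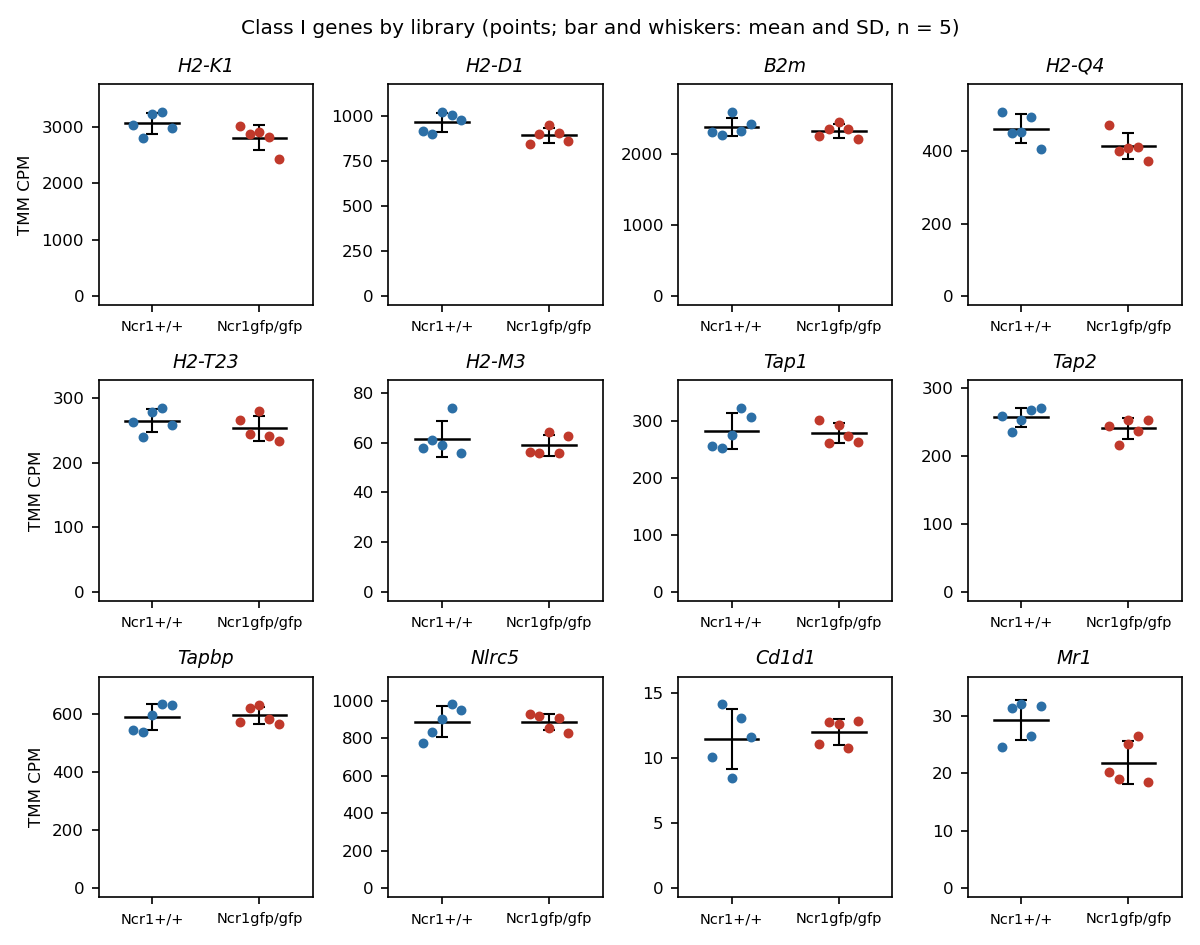
TMM CPM of 12 class I genes in each library (points), with the mean and SD (bar and whiskers, n = 5 per genotype). The genotypes overlap in every panel, and *Mr1* shows the widest separation relative to its level.

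Among the non-classical heavy chains, *H2-Q4*, of the Qa-2 region, was the one with an unadjusted p under 0.05. It was at 507, 449, 453, 493 and 405 CPM in *Ncr1*+/+ and at 472, 401, 408, 411 and 374 CPM in *Ncr1*gfp/gfp. *Ncr1*gfp/gfp replicates 2 and 5 lay below the *Ncr1*+/+ range and the other 3 inside it, giving a log2 fold change of -0.16 ± 0.07 (SE, edgeR adjusted p = 0.328). *H2-T23* encodes the Qa-1 heavy chain, whose complex with peptide is the ligand of the inhibitory receptor CD94/NKG2A. It was at 263, 239, 278, 284 and 257 CPM in *Ncr1*+/+ and at 266, 244, 279, 241 and 233 CPM in *Ncr1*gfp/gfp. The groups overlapped over most of their range, and the log2 fold change was -0.07 with a 95% interval from -0.20 to 0.07 (edgeR adjusted p = 0.787).

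The other tested heavy chains did not pass the test either. *H2-M3*, which presents N-formylated peptides, was at 61.5 ± 7.15 CPM in *Ncr1*+/+ and 58.9 ± 4.18 CPM in *Ncr1*gfp/gfp (SD, n = 5 each; log2 fold change -0.06). *H2-Q2* had the lowest fitted value of class I, -0.68 ± 0.37 (SE), but stood at 3.15 ± 0.953 CPM in *Ncr1*+/+ and 1.96 ± 0.619 CPM in *Ncr1*gfp/gfp (edgeR adjusted p = 0.514). *H2-Q10*, whose product is secreted by hepatocytes, had the highest, 0.35 ± 0.72 (SE). It was highest at 1.80 CPM in *Ncr1*gfp/gfp replicate 3, which was also the highest library in the summed hepatocyte markers (221 CPM, beside 123 to 148 CPM in the other *Ncr1*gfp/gfp libraries). Without that library the *H2-Q10* value was -0.30. By contrast, *Ncr1*+/+ replicate 1, the highest *Ncr1*+/+ library in the summed hepatocyte markers (184 CPM), was the lowest of its genotype for *H2-Q10*, at 0.168 CPM. The part of the hepatocyte signal in the *H2-Q10* values was not tested. The remaining 6 heavy chain rows, *H2-K2*, *H2-Q5*, *H2-T10*, *H2-T22*, *H2-T24* and *H2-T-ps*, had log2 fold changes between -0.16 (*H2-T-ps*) and 0.03 (*H2-T24*). RefSeq lists *H2-K2*, *H2-Q5* and *H2-T10*, and the untested *H2-Bl*, as transcribed pseudogenes. *H2-Ke6*, the enzyme gene of the region, was at 58.5 ± 5.64 CPM in *Ncr1*+/+ and 57.2 ± 10.25 CPM in *Ncr1*gfp/gfp (SD, n = 5 each).

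The loading machinery and the class I transactivator lay close to 0, and none passed the test. The 10 genes of this group (*B2m*, *Tap1*, *Tap2*, *Tapbp*, *Tapbpl*, *Calr*, *Canx*, *Pdia3*, *Erap1* and *Nlrc5*) comprised 5 below 0 and 5 above, *Nlrc5* turning from below to above under RLE factors, with log2 fold changes between -0.09 and 0.07. Their 95% intervals ran from -0.22 at the lowest to 0.19 at the highest. *Tap1* was at 256, 253, 277, 323 and 308 CPM in *Ncr1*+/+ and at 303, 262, 293, 274 and 264 CPM in *Ncr1*gfp/gfp. All 5 *Ncr1*gfp/gfp values of this peptide transporter subunit fell inside the *Ncr1*+/+ range (log2 fold change -0.02; edgeR adjusted p = 0.95). Its partner *Tap2* was at 259, 235, 253, 268 and 270.4 CPM in *Ncr1*+/+ and at 245, 216, 253, 237 and 253 CPM in *Ncr1*gfp/gfp. *Tap2* had the most negative value of the group, -0.09 ± 0.06 (SE, edgeR adjusted p = 0.606), with only *Ncr1*gfp/gfp replicate 2 below the *Ncr1*+/+ range.

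*Tapbp* encodes tapasin, which bridges TAP and the empty class I molecule. It was at 544, 537, 595, 632 and 630.2 CPM in *Ncr1*+/+ and at 572, 619, 630.3, 582 and 563 CPM in *Ncr1*gfp/gfp. The *Ncr1*gfp/gfp values again lay within the *Ncr1*+/+ range (log2 fold change 0.01; edgeR adjusted p = 0.96). *Nlrc5* was at 778, 831, 904, 983 and 953 CPM in *Ncr1*+/+ and at 929, 919, 856, 910.4 and 831 CPM in *Ncr1*gfp/gfp. Its means were 889.9 ± 84.9 and 889 ± 43.0 CPM (SD, n = 5 each), and the 95% interval of the log2 fold change ran from -0.12 to 0.12. The chaperones *Calr* and *Canx* had log2 fold changes of -0.02 and 0.07, and *Pdia3*, which encodes ERp57, was at 0.03. *Tapbpl*, a peptide editor related to tapasin, was at 0.06 and *Erap1*, which trims peptides in the endoplasmic reticulum, at 0.02. Over the 15 class I genes with at least 100 CPM in *Ncr1*+/+ (the pseudogene *H2-Q5* included), no 95% interval reached below -0.30 or above 0.19 on the log2 scale.

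The class I-like molecules encoded outside the MHC did not pass the test. *Mr1*, which presents vitamin B metabolites to mucosal-associated invariant T cells, was at 24.5, 31.4, 32, 26.5 and 31.7 CPM in *Ncr1*+/+. In *Ncr1*gfp/gfp it was at 20.1, 19.0, 25.1, 26.5 and 18.4 CPM. *Ncr1*gfp/gfp replicates 1, 2 and 5 were below every *Ncr1*+/+ value and replicates 3 and 4 lay within the *Ncr1*+/+ range. The mean was 74.8% of that in *Ncr1*+/+, with a log2 fold change of -0.42 ± 0.13 (SE, edgeR adjusted p = 0.115), the lowest adjusted p in class I. *Cd1d1*, which presents lipids to NKT cells, was at 10.09, 14.2, 8.45, 13.1 and 11.6 CPM in *Ncr1*+/+ and at 11.1, 12.8, 12.7, 10.8 and 12.9 CPM in *Ncr1*gfp/gfp. Every *Ncr1*gfp/gfp value of *Cd1d1* lay within the *Ncr1*+/+ range (log2 fold change 0.07, 95% interval from -0.27 to 0.40; edgeR adjusted p = 0.937). The difference between these 2 genes was not tested.

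Many class I rows could not be read at all. In total 15 members had no count in any library, of which 6 share their span with another member: *H2-L* lies within *H2-D1*, *H2-Q6* with *H2-Q8*, *H2-Q7* with *H2-Q9*, and *H2-T9* within *H2-T22*. The shared stretches were 3608, 3485, 4604 and 4284 bases. The counting program leaves out reads that fall on more than 1 gene, so a listed 0 for these members says nothing of their transcripts, and the counts of *H2-D1* and *H2-T22* come from what is left of their exons. The other 8 class I rows at 0 were *H2-M1*, *H2-M9*, *H2-M11* and 5 of the *H2-M10* group, and 1 class II row was at 0, *H2-Ea-ps*. A further 7 members had counts but too few to be tested, at most 25 in any library (*H2-Bl*, 25; *H2-Q1*, 20; *H2-M2*, 11; *H2-M5*, 5; *H2-T3*, 4; *H2-M10.2*, 3; *H2-DMb2*, 1). In CPM, *H2-T3* was higher in every *Ncr1*gfp/gfp library, on 1 to 4 counts against 0 to 1, which is at or near the 3-count floor. Class I heavy chains are closely similar in sequence, so how reads were split between them is uncertain for every member of the family.

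**Figure D3:**
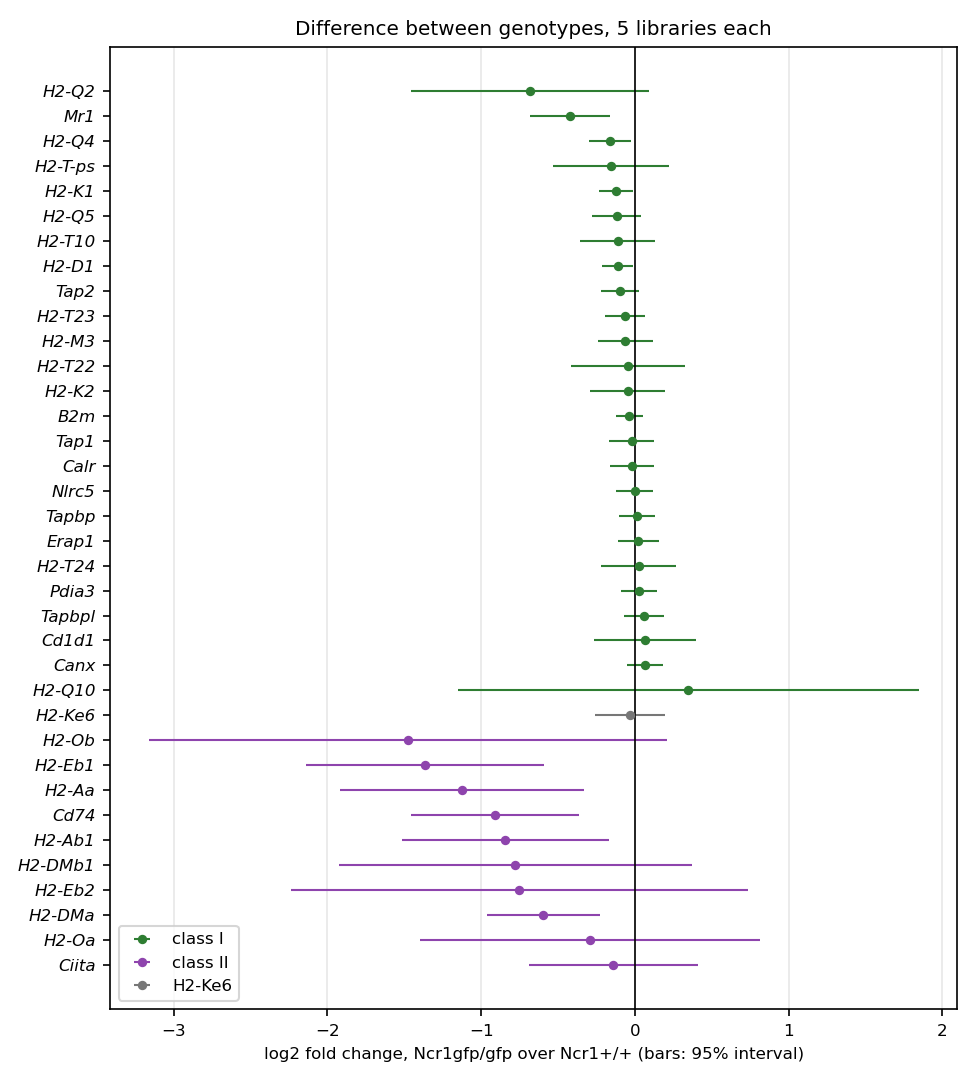
Log2 fold change, *Ncr1*gfp/gfp over *Ncr1*+/+, of the 36 tested genes with its 95% interval (edgeR, 5 libraries per genotype), coloured by class. The class I genes gather about 0 (median -0.05), whereas all 10 class II genes lie to the left (median -0.81) with wider intervals.

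The class II genes were at low levels and lower on average in *Ncr1*gfp/gfp. *Cd74*, the invariant chain, was at 24, 23.2, 34.1, 28.4 and 61.3 CPM in *Ncr1*+/+ and at 15.4, 9.55, 28.2, 24.3 and 13.5 CPM in *Ncr1*gfp/gfp. *Ncr1*gfp/gfp replicates 3 and 4 lay within the *Ncr1*+/+ range, and *Ncr1*+/+ replicate 5 stood far above the rest. The means were 34.2 ± 15.7 and 18.2 ± 7.78 CPM (SD, n = 5 each) and the log2 fold change was -0.91 ± 0.26 (SE, edgeR adjusted p = 0.0978). Without *Ncr1*gfp/gfp replicate 3 it was -1.13 (edgeR adjusted p = 0.0416), and without *Ncr1*+/+ replicate 5 it was -0.59 (edgeR adjusted p = 0.298). In RNA from a sorted population, fewer cells of a type and less RNA per cell cannot be told apart.

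The chains that form the class II molecule of this strain, *H2-Aa* and *H2-Ab1* (I-A), had the same order of means. *H2-Aa* was at 2.97, 8.43, 10.0, 7.62 and 18.4 CPM in *Ncr1*+/+ and at 3.62, 1.55, 6.78, 6.07 and 3.81 CPM in *Ncr1*gfp/gfp. Its lowest *Ncr1*+/+ library, replicate 1, was below 4 of the 5 *Ncr1*gfp/gfp libraries. The log2 fold change was -1.12 ± 0.38 (SE, edgeR adjusted p = 0.188). *H2-Ab1* was at 3.20, 5.91, 9.50, 8.23 and 14.6 CPM in *Ncr1*+/+ and at 4.25, 2.56, 5.98, 4.04 and 6.31 CPM in *Ncr1*gfp/gfp. The 2 groups again overlapped, through *Ncr1*+/+ replicates 1 and 2, with a log2 fold change of -0.84 ± 0.32 (SE, edgeR adjusted p = 0.276).

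*H2-Eb1* encodes the β chain of I-E, whose partner α chain is not made in C57BL/6 mice. It was at 3.20, 5.69, 10.15, 7.82 and 16.7 CPM in *Ncr1*+/+ and at 2.79, 2.24, 4.29, 5.71 and 1.84 CPM in *Ncr1*gfp/gfp. Only *Ncr1*+/+ replicates 1 and 2 lay within the *Ncr1*gfp/gfp range. It had the lowest adjusted p of all members (log2 fold change -1.37 ± 0.37, SE, edgeR adjusted p = 0.0759), and a mean of 38.8% of that in *Ncr1*+/+. In DESeq2 its adjusted p was 0.0142, and in edgeR without *Ncr1*gfp/gfp replicate 4 or without *Ncr1*+/+ replicate 1 it was 0.0441 or 0.0204. Without *Ncr1*+/+ replicate 5 the log2 fold change was -0.99 (edgeR adjusted p = 0.266). *Cd74*, *H2-Aa* and *H2-Eb1* were all called when no filter on low counts was set (edgeR adjusted p from 0.0027 to 0.0377), and when the library highest in hepatocyte markers was left out of each genotype (*Ncr1*+/+ replicate 1 and *Ncr1*gfp/gfp replicate 3, edgeR adjusted p from 0.0335 to 0.0353). In the summed class II genes other than *Ciita*, *Ncr1*+/+ replicate 1 was the lowest library of its genotype (46.1 CPM). *Ncr1*gfp/gfp replicate 3 was the highest of its own (56 CPM). Leaving both out, a choice made after the values were seen, therefore widens the class II difference by construction. *H2-Eb2* was at 1.89 ± 1.37 CPM in *Ncr1*+/+ and 1.13 ± 0.984 CPM in *Ncr1*gfp/gfp (SD, n = 5 each) and had an edgeR adjusted p of 0.78.

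**Figure D4:**
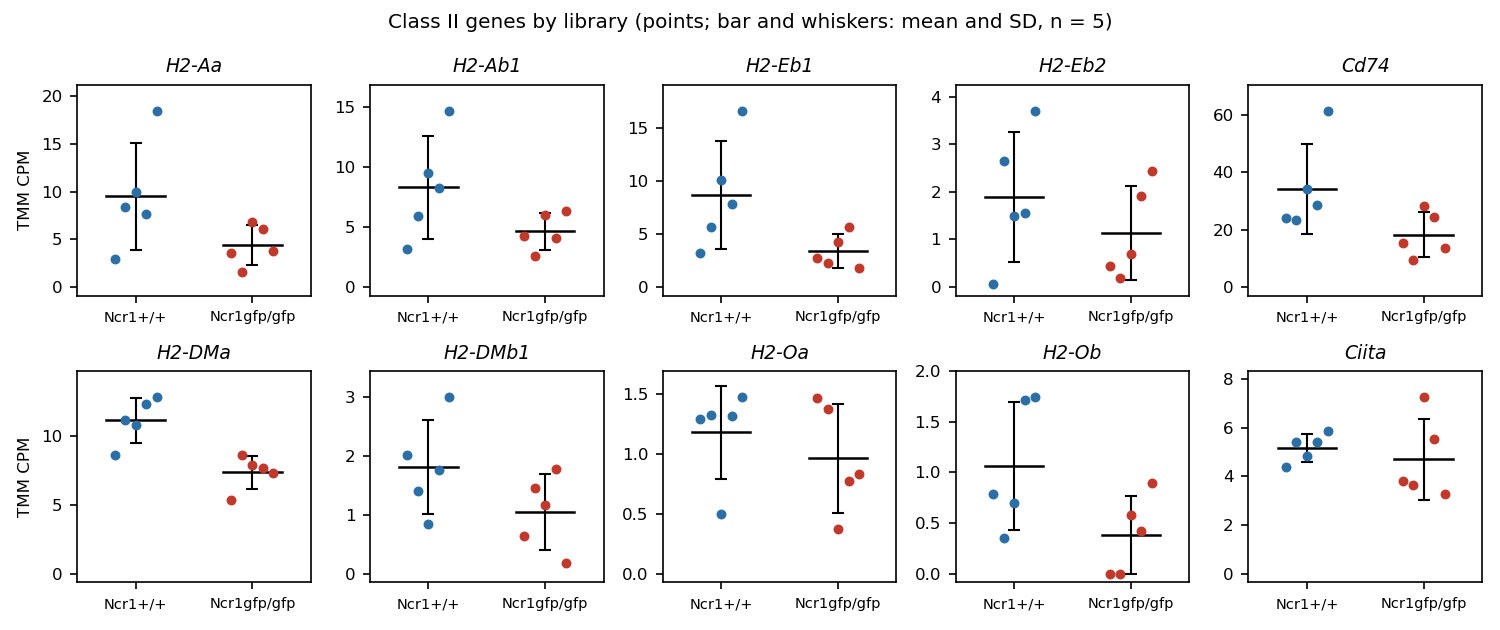
TMM CPM of the 10 tested class II genes in each library (points), with the mean and SD (bar and whiskers, n = 5 per genotype). *Ncr1*+/+ replicate 5 is the highest point in 9 of the 10 panels, among them *Cd74* at 61.3 CPM.

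Among the accessory chains, which edit the peptide in the endosome, *H2-DMa* came nearest to a separation. It was at 8.63, 11.2, 10.8, 12.4 and 12.8 CPM in *Ncr1*+/+ and at 5.40, 8.64, 7.89, 7.67 and 7.32 CPM in *Ncr1*gfp/gfp. The groups met only where *Ncr1*gfp/gfp replicate 2 stood level with *Ncr1*+/+ replicate 1, and the log2 fold change was -0.59 ± 0.18 (SE, edgeR adjusted p = 0.116). Its partner *H2-DMb1* was at 1.81 ± 0.795 and 1.05 ± 0.643 CPM in *Ncr1*+/+ and *Ncr1*gfp/gfp (SD, n = 5 each). *H2-Oa* and *H2-Ob*, whose product restrains H2-DM, were at most 1.47 and 1.74 CPM in any library, and their 95% intervals included 0. *H2-Ob* had the most negative fitted value of the class, -1.48 ± 0.81 (SE), with 2 *Ncr1*gfp/gfp libraries at 0. For single genes, two-sided exact permutation tests of log2 CPM gave p = 0.0159 for *H2-DMa*, p = 0.0397 for *H2-Eb1*, p = 0.0635 for *Cd74*, p = 0.0952 for *H2-Aa* and p = 0.127 for *H2-Ab1*, unadjusted, where 5 against 5 libraries allow 0.00794 at the smallest.

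*Ciita*, the transactivator of the class II genes, was at a low level and did not pass the test. It was at 4.37, 5.43, 4.85, 5.40 and 5.88 CPM in *Ncr1*+/+ and at 3.81, 3.66, 7.25, 5.53 and 3.27 CPM in *Ncr1*gfp/gfp. The highest and the lowest library were both *Ncr1*gfp/gfp, and the log2 fold change was -0.14 with a 95% interval from -0.69 to 0.41 (edgeR adjusted p = 0.916).

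The class II level varied from library to library beside markers of macrophages and Kupffer cells, the resident macrophages of the liver. The summed CPM of the 11 class II genes other than *Ciita* was 46.1, 60.2, 78.1, 70.8 and 134 in *Ncr1*+/+ and 34, 27.6, 56, 52.7 and 37.1 in *Ncr1*gfp/gfp. The summed CPM of 14 macrophage and Kupffer cell markers was 16.7, 40.8, 41.5, 46.5 and 85.4 in *Ncr1*+/+ and 25.6, 13.1, 50.7, 57.4 and 34.3 in *Ncr1*gfp/gfp. The same libraries were at both ends of the 2 sums: *Ncr1*+/+ replicate 5 was the highest in both, and *Ncr1*gfp/gfp replicate 2 the lowest. *Ncr1*gfp/gfp replicates 3 and 4 were above *Ncr1*+/+ replicates 2, 3 and 4 in the macrophage sum and below them in the class II sum. Of the 9 macrophage markers tested, 8 were lower in *Ncr1*gfp/gfp and 1 higher, and 0 had an unadjusted p under 0.05. The part of such cells in the class II values was not tested. The covariate fit that follows adjusts for the marker sum and cannot separate carried-over cells from the genotype.

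**Figure D5:**
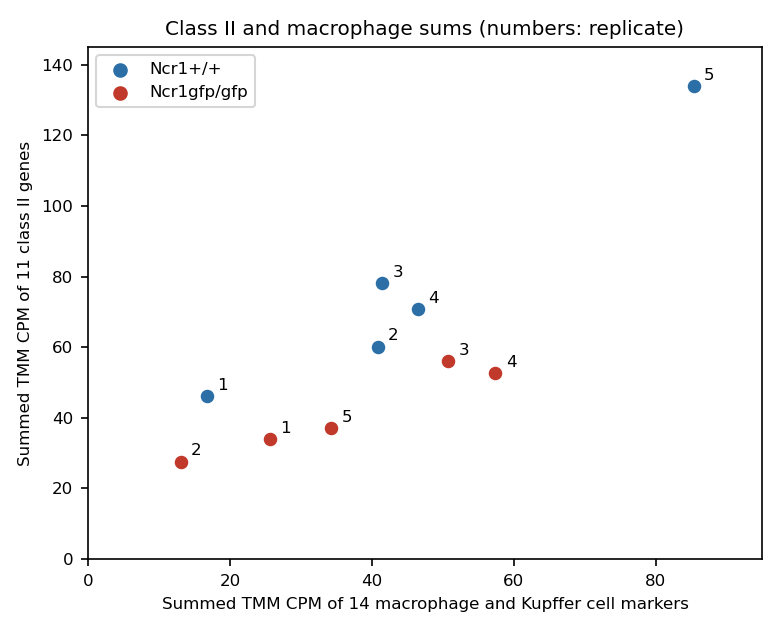
Summed TMM CPM of the 11 class II genes other than *Ciita* against the summed TMM CPM of 14 macrophage and Kupffer cell markers in each of the 10 libraries, numbered by replicate within genotype. *Ncr1*+/+ replicate 5 lies at the top right (85.4 and 134 CPM) and *Ncr1*gfp/gfp replicate 2 at the bottom left (13.1 and 27.6 CPM).

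*Ncr1*+/+ replicate 5 and *Ncr1*gfp/gfp replicate 2 were at the ends of the class II sum as well, so leaving them out lowers the class II difference by construction. Without both, a choice made after the values were seen, the median log2 fold change of class II was -0.47. *Cd74* was then at -0.43 (edgeR adjusted p = 0.445). Without *Ncr1*+/+ replicate 5 alone the class II median was -0.54. With the log2 of the macrophage sum as a covariate, a fit added after the values were seen, the median was -0.63. *Cd74* was then called at -0.71 (edgeR adjusted p = 0.0221), whereas *H2-Eb1* was not, at -0.99 (edgeR adjusted p = 0.0791). All 10 class II genes stayed below 0 in each of these fits. The summed lists for other antigen-presenting cells did not share this order of genotypes, though their scarcest genes did. The summed CPM of 9 B cell markers was 1.79 to 7.07 in *Ncr1*+/+ and 3.81 to 7.91 in *Ncr1*gfp/gfp, most of it from *Cd79b* and *Bank1* (log2 fold changes 0.52 and 0.32), while *Cd79a*, *Ms4a1* and *Pax5* had 0 to 8 counts in any library. The summed CPM of 11 dendritic cell markers was 1348 to 1476 in *Ncr1*+/+ and 1670.3 to 1786 in *Ncr1*gfp/gfp. Nearly all of that came from *Itgax*, an integrin gene that group 1 lymphocytes also express, which was higher in *Ncr1*gfp/gfp without overlap (log2 fold change 0.28, edgeR adjusted p = 0.000539). *Ccr9*, *Bst2* and *Zbtb46* were at 0.87, 0.05 and -0.19 and did not pass the test, and the other 7 dendritic cell markers, *Xcr1* and *Clec9a* among them, had 0 to 21 counts. Those 7 with *Cd79a*, *Ms4a1* and *Pax5* summed to 11, 20, 36, 23 and 57 counts in *Ncr1*+/+. In *Ncr1*gfp/gfp the same 10 genes summed to 13, 9, 5, 0 and 15 counts. *Ncr1*+/+ replicate 5 was the highest here too, and *Ncr1*+/+ replicate 1 lay within the *Ncr1*gfp/gfp range. The part of these cells in the class II values was not tested. The summed T cell markers were 461 to 579 CPM in *Ncr1*+/+ and 633 to 835 CPM in *Ncr1*gfp/gfp, without overlap. Most of that came from 1 gene, *Cd3g*, with means of 501 and 687 CPM. All 5 tested T cell markers were higher in *Ncr1*gfp/gfp. *Cd3g*, *Cd3e* and *Cd8a* were so without overlap (1.28% of tested genes), with log2 fold changes of 0.45, 1.88 and 1.53. The part of these genes in the class II values was not tested.

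The wider pathway was described with lists of genes outside the set. Of 50 such genes, 47 were tested, and 0 reached an adjusted p under 0.05 in edgeR (2 in DESeq2, 1 in limma-voom). At an unadjusted p under 0.05, 8 were lower and 0 higher, beside 5.91% and 5.46% of all tested genes. The immunoproteasome and PA28 genes, which cut peptides for class I or activate the proteasome, comprised 7 genes below 0 of 7, with log2 fold changes between -0.20 and -0.01 and adjusted p of 0.376 or above. Among 19 transcription and interferon signalling genes that act on the MHC, 3 had no overlap between the genotypes and were lower in *Ncr1*gfp/gfp (1.82% of all tested genes). *Irf8*, an interferon regulatory factor of innate cells, was at 150.4 ± 9.28 CPM in *Ncr1*+/+ and 128 ± 6.92 CPM in *Ncr1*gfp/gfp (SD, n = 5 each; log2 fold change -0.24 ± 0.06, SE, edgeR adjusted p = 0.0735). *Jak2*, a kinase of the interferon-γ receptor, was at 545 ± 35.6 and 485 ± 16 CPM in the same order (log2 fold change -0.17; edgeR adjusted p = 0.129). *Rela*, the NF-κB subunit, had a log2 fold change of -0.21 (edgeR adjusted p = 0.0994). The 3 subunits of the RFX complex that binds MHC promoters were at 0.16 (*Rfx5*), -0.06 (*Rfxap*) and -0.07 (*Rfxank*).

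Class II antigen processing gave a mixed picture. Of 9 tested lysosomal genes, 6 were below 0 and 3 above. *Ctss*, the cathepsin that cuts the invariant chain, was at 10.23 ± 4.67 CPM in *Ncr1*+/+ and 6.16 ± 3.31 CPM in *Ncr1*gfp/gfp (SD, n = 5 each; log2 fold change -0.73; edgeR adjusted p = 0.351). *Ctsd*, a general lysosomal protease, was at 1280.2 ± 59.9 and 1332 ± 60.5 CPM (log2 fold change 0.06; edgeR adjusted p = 0.719). The 3 tested co-stimulatory genes, *Cd86*, *Icosl* and *Cd83*, were all below 0 at -0.54, -0.16 and -0.77, and none passed the test. *Cd80* and *Cd40* had too few counts to be tested and differed in direction. Mean CPM in *Ncr1*+/+ and *Ncr1*gfp/gfp was 0.144 and 0.608 for *Cd80*, and 0.384 and 0.0212 for *Cd40*.

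For 1 gene of each class, the genes outside the set that varied most alike over the 10 libraries were listed, by Pearson's r of log2 CPM after the genotype means were removed. For *H2-K1* these were *Isg15* (0.94), *Mrpl40* (0.92), *Nfkb2* (0.90), *Brd2* (0.90) and *Snord15a* (0.89). For *H2-Aa* they were *Gtpbp2* (0.94), *Afmid* (0.93), *Ddx59* (0.93), *4632427E13Rik* (0.93) and *Erlin2* (0.92). *Isg15* is an interferon-induced gene, as *H2-K1* is known to be. None of the 10 genes differed between genotypes at an adjusted p under 0.05, and with so many genes and 10 libraries sharing depth and sort, such values are a description.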

How the data were processed

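RNA-seq counts were examined for 10 liver ILC1 libraries, 5 per genotype. The authors amplified polyA-primed cDNA from sorted cells, sequenced 51 cycles from one end and deposited raw read counts per gene without normalization. The submitters' processing notes name Trimmomatic 0.38, FASTP 0.19.4, STAR 020201 and HTSeq 0.6.0. Strand was not marked by the kit and HTSeq was run at its defaults, which count a read for genes on the read's own strand, so part of the reads of each gene would be left uncounted and reads of *B2m*, *H2-Oa*, *H2-T22*, *H2-T23*, *H2-T24* and *Tapbpl* cannot be told apart from those of overlapping genes on the opposite strand. *LOC547349* overlaps *H2-D1*, *H2-L* and *H2-Q1* on the same strand. The study names mm10, but the last gene on chromosome 1 of the table ends at 197002909, against 195291439 in GRCm38.p6, so no coordinates are printed, and 55 of the 58 symbols were found in RefSeq for GRCm38.p6.

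Counts were tested in R 4.3.3 with edgeR 4.0.16 (filterByExpr, TMM, quasi-likelihood, Benjamini-Hochberg over all 11463 tested genes). Fold changes are *Ncr1*gfp/gfp over *Ncr1*+/+. Levels per length are TMM CPM divided by the exon length in kb from the table. Single genes were also examined with exact permutation tests. The script was tested on simulated data. Alternatives were DESeq2 1.42.0, RLE and upper-quartile factors, limma-voom 3.58.1, other filters, a replicate block, each library left out, and fits without the libraries that stood apart in liver cell markers. Same-numbered libraries of the genotypes did not deviate together (r from -0.02 to 0.04), so the numbers were not taken as pairs.

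Genes given with the value in every library were the chief members of each role and every member with an unadjusted p under 0.05. Pathway genes outside the set were named where the genotypes did not overlap. Not every cell type marker without overlap was named. *H2-M3*, *H2-Q2*, *H2-Q10*, the lesser class II chains, *Rfx5*, *Rfxap*, *Rfxank*, *Ctss*, *Ctsd*, *Cd86*, *Icosl*, *Cd83*, *Cd80* and *Cd40* were added after their values were seen. The members and lists were chosen with earlier results of these data known. Intervals and the 3-count floor cover counting and library spread only. Sequences were not printed.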

Additional observations from a re-analysis of the deposited data

Results flagged for a closer look

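In 94 groups of 5 libraries examined for a single library far from the rest, 5 were found where chance gives 4.7. *Cd74* was at 61.3 CPM in *Ncr1*+/+ replicate 5, with the nearest library at 34.1 CPM. That library was also the highest in the summed macrophage and Kupffer cell markers (85.4 CPM) and for 9 of the 10 tested class II genes. *H2-Oa* was at 0.50 CPM in *Ncr1*+/+ replicate 3, below a nearest value of 1.29 CPM. The summed hepatocyte markers stood at 184 CPM in *Ncr1*+/+ replicate 1, above a nearest value of 146 CPM, and at 221 CPM in *Ncr1*gfp/gfp replicate 3, above a nearest value of 148 CPM. The summed NK cell markers stood at 196 CPM in *Ncr1*gfp/gfp replicate 1, with the nearest library at 144 CPM. The class II values without these hepatocyte-rich libraries stand among the results that depend on the processing.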

How the results depend on the processing

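Over all genes 84 of 11463 tested were called, 128 with DESeq2 and 131 of 16610 with no filter on low counts. With a library left out 60 to 98 were called. Without the 2 libraries highest in hepatocyte markers 60 of 11525 were called, and with the macrophage sum as a covariate 92 of 11463. Class I stayed at 0 calls except at an unadjusted p under 0.05, where it had 4. At that unadjusted p, leaving out a library gave 1 to 5 for class I and 3 to 6 for class II. Class II had 0 calls in edgeR, 1 with DESeq2, 3 with no filter, 5 at an unadjusted p under 0.05, 0 to 1 with a library left out (1 without *Ncr1*gfp/gfp replicate 3 or 4 or *Ncr1*+/+ replicate 1), 3 without the 2 libraries highest in hepatocyte markers and 1 with the macrophage sum as a covariate. The hepatocyte-rich libraries were the lowest *Ncr1*+/+ and the highest *Ncr1*gfp/gfp library in the class II sum, so leaving them out favours a larger difference. Without a filter more genes are tested, and the other causes were not tested. Genes without overlap numbered 1 of class I with no filter, 0 to 1 with a library left out (1 without *Ncr1*gfp/gfp replicate 1 or *Ncr1*+/+ replicate 1) and 1 without the hepatocyte-rich libraries. Of class II they numbered 1 with upper-quartile factors, 0 to 2 with a library left out (1 without *Ncr1*gfp/gfp replicate 2, 2 without *Ncr1*+/+ replicate 1), 1 without the libraries at the ends of the macrophage sum (also those of the class II sum, so the choice favours a smaller difference) and 2 without the hepatocyte-rich ones. The share of all tested genes without overlap was not counted in these settings, so the numbers are a description. Where libraries are left out, a separation is likelier by chance. Of the pathway genes outside the set 2 passed the adjusted p with DESeq2, 1 with limma-voom and 0 to 1 with a library left out (1 without *Ncr1*+/+ replicate 2). The replicate block left class I and class II at 0 calls and gave 87 over all genes; 1 of 5 libraries correlated best with its own number.

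The class II genes kept their direction under every alternative, and the log2 fold changes that turned were of class I genes or *H2-Ke6*, all near 0 but that of *H2-Q10*. Leaving out a library moved *Calr* between -0.083 and 0.022, *Cd1d1* between -0.028 and 0.15, *H2-K2* between -0.12 and 0.016, *H2-Ke6* between -0.11 and 0.065, *H2-M3* between -0.096 and 0.013, *H2-Q10* between -0.30 and 0.67, *H2-T22* between -0.17 and 0.067, *H2-T24* between -0.026 and 0.073, *Nlrc5* between -0.048 and 0.038, *Pdia3* between -0.0072 and 0.073, *Tap1* between -0.061 and 0.031 and *Tapbp* between -0.019 and 0.042. With the macrophage sum as a covariate *Calr* was at 0.0050, *H2-T22* at 0.040, *Nlrc5* at 0.018 and *Tap1* at 0.0087. Without the libraries at the ends of that sum *Calr* was at 0.014, *Erap1* at -0.0057, *H2-T22* at 0.036, *Nlrc5* at 0.013 and *Tap1* at 0.033. Without the hepatocyte-rich libraries *H2-Ke6* was at 0.0039, *H2-Q10* at -0.53 and *Tapbp* at -0.038. With DESeq2 *Nlrc5* was at 0.0017. With RLE factors *Nlrc5* was at 0.0017. With the replicate block *Nlrc5* was at 0.0024. With limma-voom *Tapbp* was at -0.016. Depth limits the low genes: 3 counts are 0.132 to 0.19 CPM, and the 95% intervals of class II reach -3.16.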
